A study of Rattus norvegicus with 12 samples.

Results

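Actb, B2m, Gusb, Hprt1 and Hsp90ab1 are 5 genes that are widely used as internal references in expression studies. On the arrays of this study each was measured by 1 custom reference probe printed in 30 spots: CUST_4_PI421900130 for Actb, CUST_1_PI421900130 for B2m, CUST_9_PI421900130 for Gusb, CUST_10_PI421900130 for Hprt1 and CUST_8_PI421900130 for Hsp90ab1. They are 5 of 38321 probes that were not controls, and they were picked by probe name, with earlier results of these data known. The arrays carry 12 such custom reference probes, of which 10 could be given a gene name through the table of rat genes. The question put to the 5 genes was which of them held a stable level across the strains and treatments.

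A reference gene serves as a ruler: the amount of another transcript is divided by it, so a change in the ruler passes into everything measured with it. The genes in common use are needed by nearly every cell, but they belong to different machinery and need not move together. Actb encodes beta-actin of the cytoskeleton, and B2m the light chain of class I histocompatibility molecules. Gusb encodes the lysosomal enzyme beta-glucuronidase, Hprt1 an enzyme that salvages purine bases for nucleotide synthesis, and Hsp90ab1 the constitutive cytosolic form of the chaperone HSP90. In the artery wall, actin genes are linked to the contractile and synthetic states of smooth muscle, and beta-actin is the nonmuscle form.

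Thoracic aortas of male rats gave the RNA for 12 single-colour Agilent arrays, 3 for each of 4 groups. WKY are Wistar-Kyoto rats, the normotensive strain usually set beside spontaneously hypertensive rats (SHR), and both WKY and the untreated SHR-C group received drinking water by gavage. The SHR-Bh group received a high dose of BSJY, a preparation of 8 herbal granules, labelled as 6.75 g/ml/day. The SHR-Ca group received captopril, an inhibitor of angiotensin-converting enzyme, labelled as 0.125 g/ml/day. Gavage was once daily for 16 weeks from an age of 12 weeks. The age in the sample labels is 32 weeks, and the sources used here leave that difference unresolved. All 3 SHR groups share the hypertensive background, and a low-dose BSJY group named in the labels is not analysed here. Whether each array stands for 1 animal is not given, so every p-value rests on the spread between samples, which may be technical.

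A scan session here means the arrays whose file headers give the same scan time. The 3 WKY arrays were scanned in a session of their own, 629 days after the first SHR scan, whereas the SHR arrays were scanned within 3.9 days in 4 sessions. Strain and scan session therefore cannot be told apart in any comparison with WKY. Among the SHR arrays, SHR-C was scanned in sessions 2 and 3, SHR-Ca in 3 and 4, and SHR-Bh in 4 and 5. Sessions 2, 3 and 4 all lay at day 0 and session 5 at 3.9 days. SHR-Bh and SHR-C shared no session, so no session compares them directly and only the SHR-Ca arrays link them. In a fit without session, BSJY treatment and session cannot be told apart between them. The WKY arrays were also brighter, with a 75th percentile of intensity of 182.0 to 384.8 against 109.8 to 190.2 on SHR arrays, and 73.9% to 87.9% against 51.2% to 68.6% of probes well above background. Of 38 marker genes for the cell types of the aortic wall and its surroundings, none was named on the array, so the labelled tissue could not be checked against its markers. The tissue was measured in bulk, so a change in the cells present and a change in RNA per cell cannot be told apart. Precision is limited by the small number of arrays.

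All 30 spots of each of the 5 probes were well above background on every array, and none was marked as saturated. Of 1800 spots in all, 26 were marked as outliers and left out: 14 of B2m, 7 of Hprt1, 3 of Gusb, 2 of Hsp90ab1 and none of Actb. At least 26 spots were used for each gene on each array. The SD over the spots of a probe on 1 array had a median of 0.06 on the log2 scale and was 0.12 at most, so the SE of a probe's mean was 0.02 at most. Spots are repeat measurements of 1 labelled RNA and were not counted as replicates of a group. Before any scaling, B2m spanned mean intensities of 14610 to 60810, Hsp90ab1 3858 to 11400, Actb 935.3 to 7843, Hprt1 1439 to 3665 and Gusb 211.6 to 847.7. The levels below are log2 intensities minus the 75th percentile of the array, so a difference of 1 is a 2-fold difference, and levels of different probes are not set against each other.

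Actb, the cytoskeletal reference, was the most variable of the 5 over all 12 arrays. Its level was 3.12, 3.25 and 4.35 on the WKY arrays 1 to 3, and 3.27, 3.56 and 2.63 on the SHR-C arrays. It was 4.60, 3.49 and 3.67 on the SHR-Bh arrays, and 4.39, 4.52 and 4.47 on the SHR-Ca arrays. The 3 SHR-Ca arrays lay within a narrow band above every SHR-C array, and WKY 3 and SHR-Bh 1 stood well above the other arrays of their groups. In rising order, the mean of SHR-C was 3.15 ± 0.47, that of WKY 3.57 ± 0.68, that of SHR-Bh 3.92 ± 0.60 and that of SHR-Ca 4.46 ± 0.06 (SD, n = 3 each). Each group overlapped the next in that order, so neighbours did not differ beyond their spread.

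B2m was the least variable over all 12 arrays. Its level was 6.90, 6.97 and 7.30 in WKY, and 7.48, 7.05 and 7.56 in SHR-C. It was 7.06, 7.68 and 7.40 in SHR-Bh, and 7.08, 7.32 and 6.94 in SHR-Ca. All 4 groups overlapped, and the group means ran from 7.06 ± 0.21 in WKY through 7.11 ± 0.19 in SHR-Ca and 7.37 ± 0.28 in SHR-C to 7.38 ± 0.31 in SHR-Bh.

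Gusb, the lysosomal enzyme, had almost equal group means but a wide spread inside 2 of the groups. Its level was 1.53, 1.18 and 0.96 in WKY, and 1.85, 0.47 and 1.06 in SHR-C. It was 1.06, 1.23 and 1.43 in SHR-Bh, and 1.05, 2.21 and 0.77 in SHR-Ca. The mean was lowest in SHR-C at 1.12 ± 0.69, followed by WKY at 1.23 ± 0.29, SHR-Bh at 1.24 ± 0.19 and SHR-Ca at 1.34 ± 0.76, and all groups overlapped. SHR-Ca 2 was the highest of all arrays and SHR-C 2 the lowest, and both were scanned in the same session. The cause of this spread was not tested.

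Hprt1, the purine salvage enzyme, stood apart between WKY and SHR arrays. Its level was 2.98, 3.28 and 3.12 in WKY, and 4.03, 3.71 and 4.13 in SHR-C. It was 3.72, 4.31 and 4.42 in SHR-Bh, and 3.86, 4.26 and 3.86 in SHR-Ca. Every one of the 9 SHR arrays lay above the highest WKY array, while the 3 SHR groups overlapped one another. The means were 3.13 ± 0.15 in WKY, 3.96 ± 0.22 in SHR-C, 3.99 ± 0.23 in SHR-Ca and 4.15 ± 0.38 in SHR-Bh.

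Hsp90ab1, the chaperone, gave a similar but smaller step. Its level was 4.41, 4.90 and 4.89 in WKY, and 5.21, 5.60 and 5.43 in SHR-C. It was 5.21, 5.10 and 5.27 in SHR-Bh, and 5.28, 5.31 and 5.75 in SHR-Ca. All 9 SHR arrays again lay above all WKY arrays. The means were 4.73 ± 0.28 in WKY, 5.19 ± 0.09 in SHR-Bh, 5.41 ± 0.20 in SHR-C and 5.45 ± 0.27 in SHR-Ca. Both treated groups overlapped SHR-C in range, whereas the highest SHR-Bh array lay just below the lowest SHR-Ca array.

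**Figure D1:**
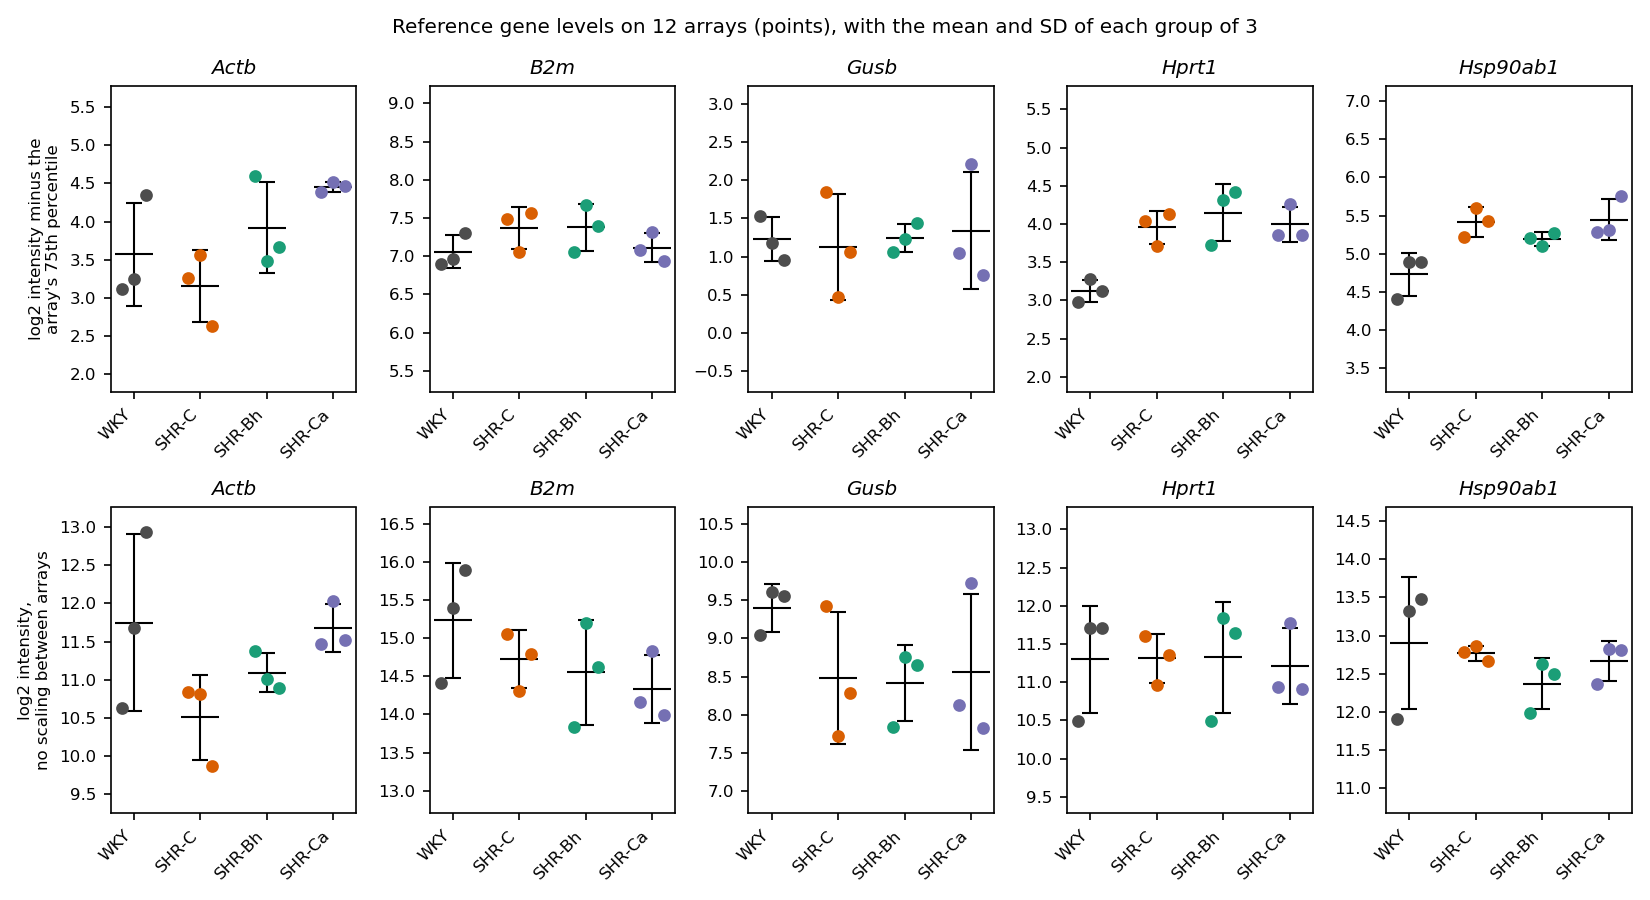
Level of each reference gene on the 12 arrays, 1 column of panels per gene and 1 point per array; horizontal lines and bars give the mean and SD of each group of 3. The upper row is log2 intensity minus the array's 75th percentile, the lower row log2 intensity with no scaling between arrays; all 9 SHR arrays lie above WKY for Hprt1 and Hsp90ab1 in the upper row only.

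The step of Hprt1 and Hsp90ab1 depends on how arrays are put on a common scale. Without any scaling the mean of Hprt1 was 11.21 ± 0.49 in SHR-Ca, 11.30 ± 0.70 in WKY, 11.31 ± 0.32 in SHR-C and 11.33 ± 0.72 in SHR-Bh, a range of only 0.11. Hsp90ab1 was then 12.90 ± 0.86 in WKY and 12.37 to 12.77 in the SHR groups, and the strains overlapped for both genes. After quantile normalization, median scaling or normexp background correction, no WKY array overlapped an SHR array for Hprt1. For Hsp90ab1 the strains stayed apart under median scaling but overlapped after quantile normalization and normexp. The unscaled SHR mean minus the WKY mean was -0.65 for Actb, -0.70 for B2m and -0.91 for Gusb on the log2 scale. For all 5 genes the direction of the difference between WKY and SHR arrays is therefore relative to the scale chosen.

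The promoters of 4 of the 5 genes were matched in RefSeq (rat build GRCr8). The 250 bases before the start of Hprt1 are shown, since Hprt1 passed the test in every comparison with WKY; they lie at chrX:137655494-137655743 on the plus strand and are written 5′ to 3′ with each GGGCGG, the core letters of a GC box, in capitals.
Hprt1 upstream: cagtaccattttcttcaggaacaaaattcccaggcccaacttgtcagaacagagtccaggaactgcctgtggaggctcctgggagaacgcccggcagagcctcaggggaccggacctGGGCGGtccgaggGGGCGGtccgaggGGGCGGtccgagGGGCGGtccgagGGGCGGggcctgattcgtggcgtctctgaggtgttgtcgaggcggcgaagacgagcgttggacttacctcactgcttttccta
The sequence holds 5 matches to GGGCGG, searched on both strands, arranged in a short repeated unit. The window of Hsp90ab1 also held 5, and those of B2m and Gusb held none. Of 33469 rat promoter windows of 250 bases, 30.5% held at least 1 match and 1.72% held 5 or more. TATAAA was found in the window of B2m alone among the 4, and in 12.9% of all windows. CCAAT occurred in the windows of B2m and Hsp90ab1, and in 34.0% of all windows. The share of G and C was 68.4% for Hsp90ab1, 63.6% for Hprt1, 56.0% for Gusb and 50.8% for B2m, against a median of 51.2%. A match to these letters is a description of the sequence and was not tested for activity in these rats.

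The first comparison asked whether the untreated hypertensive strain differed from WKY. Hprt1 and Hsp90ab1 rose and the other 3 genes did not pass the test. Of all 29613 probes tested 61.7% passed, with 21.9% higher and 39.8% lower in SHR-C, so passing was no distinction in this comparison. Of the calls 35.5% were higher, a share that was 47.7% after quantile normalization, 57.1% after normexp and 10.6% without scaling. Hprt1 was higher by 0.83 (SE 0.25, 1.78-fold, limma adjusted p = 0.013) and Hsp90ab1 by 0.68 (SE 0.23, 1.61-fold, limma adjusted p = 0.023), in 3 of 3 arrays each against all WKY arrays. B2m differed by 0.31 (limma adjusted p = 0.30), Gusb by -0.10 (limma adjusted p = 0.84) and Actb by -0.42 (limma adjusted p = 0.37). The groups did not overlap for 2 of the 5 genes, against 71.2% of tested probes. The median change of the 5 was 0.31, against -0.42 for all tested probes and 0.20 for the 17797 probes that were bright on every array. Without scaling, which shifts every probe of a comparison equally, the median of all tested probes was -1.24 and Hprt1 stood at 0.01.

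Those calls varied in how firmly they held. Hprt1 lost its call with normexp background correction (0.63, limma adjusted p = 0.068), without scaling (0.01, limma adjusted p = 0.99) and with scaling to a single spike-in probe, which turned its direction (-0.38, limma adjusted p = 0.86). Hsp90ab1 lost its call under quantile normalization (0.44, limma adjusted p = 0.13), median scaling (0.57, limma adjusted p = 0.052) and normexp (0.48, limma adjusted p = 0.14). It turned direction without scaling (-0.14) and with the spike-in probe (-0.53). It was also lost without WKY 1 (0.52, limma adjusted p = 0.099), without SHR-C 2 (0.59, limma adjusted p = 0.081) and without SHR-C 3 (0.68, limma adjusted p = 0.055).

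In the treated rats set against WKY, Hprt1 rose in both groups and Hsp90ab1 in SHR-Ca. In SHR-Bh, Hprt1 rose by 1.02 (SE 0.25, 2.03-fold, limma adjusted p = 0.0034) and was the only 1 of the 5 to pass, where 67.2% of all probes passed, 24.4% higher and 42.8% lower. Hsp90ab1 differed by 0.46 (limma adjusted p = 0.095), although the groups did not overlap, as was true of 2 of the 5 genes and 74.9% of probes. The other 3 differed by 0.35 for Actb, 0.32 for B2m and 0.02 for Gusb. In SHR-Ca, Hprt1 rose by 0.87 (SE 0.25, 1.82-fold, limma adjusted p = 0.0091) and Hsp90ab1 by 0.72 (SE 0.23, 1.64-fold, limma adjusted p = 0.017), where 66.4% of all probes passed, 23.5% higher and 42.9% lower. The share of higher calls was 36.4% for SHR-Bh and 35.4% for SHR-Ca, and it was 47.7% and 47.1% after quantile normalization, 55.3% and 53.0% after normexp, and 8.60% and 9.74% without scaling. These comparisons use the same WKY arrays as that of SHR-C, so they are no separate evidence of the step between WKY and SHR.

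Actb in captopril-treated rats showed a wide difference from WKY that did not pass the test. It was higher by 0.88 (SE 0.39, 95% interval 0.02 to 1.75, limma adjusted p = 0.067), and its groups did not overlap, as was true of 3 of the 5 genes and 71.4% of probes. Without WKY 3, the WKY array with the highest Actb, the difference was 1.27 and passed (limma adjusted p = 0.013), and it passed with array weights (0.99, limma adjusted p = 0.042). It was 0.66 without WKY 1 (limma adjusted p = 0.21) and 0.72 without WKY 2 (limma adjusted p = 0.19). Quantile normalization gave 0.69 (limma adjusted p = 0.20), and without scaling the direction turned (-0.07). Hsp90ab1 in the same comparison lost its call without WKY 1 (0.55, limma adjusted p = 0.078) and without SHR-Ca 3 (0.56, limma adjusted p = 0.073). It lost it too under quantile normalization (0.57, limma adjusted p = 0.055) and normexp (0.56, limma adjusted p = 0.081), and turned direction without scaling (-0.24). Hprt1 kept its calls against WKY in both treated groups except without scaling (0.02 and -0.09) and with the spike-in probe (0.38 and 0.32).

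Among the SHR groups none of the 5 genes passed the limma test in any of the 3 comparisons. High-dose BSJY against no treatment moved them by -0.22 (Hsp90ab1) to 0.77 (Actb), with adjusted p-values of 0.49 to 0.99 and none under 0.05 before adjustment, where 0.0946% of all probes passed. BSJY against captopril gave -0.54 (Actb) to 0.27 (B2m), with none under 0.05 before adjustment, where 0% of all probes passed. Groups overlapped for all 5 genes in the first of these and for 4 in the second, with Hsp90ab1 the exception; 15.7% and 9.48% of all probes did not overlap.

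Captopril against no treatment gave the largest change of the 5 genes in any comparison, that of Actb. SHR-Ca exceeded SHR-C by 1.30 (SE 0.39, 95% interval 0.44 to 2.17), a 2.47-fold difference that was higher in 3 of 3 SHR-Ca arrays than in every SHR-C array. It was the only 1 of the 5 under 0.05 before adjustment and did not pass after it (limma adjusted p = 0.27), where 0.28% of all probes passed and 16.6% did not overlap. The difference was larger in size than that of 94.2% of tested probes. Within the session that held both groups, 2 arrays of each, it was 1.36, beside 0.87 for Gusb and -0.22 to 0.14 for the other 3 genes. Leaving out each array in turn gave 1.04 to 1.51. Over all arrays of both groups the other 4 genes lay between -0.25 (B2m) and 0.22 (Gusb). With the scan session as a block, Gusb was 1.35 (SE 0.76) and Actb 1.03 (SE 0.75) in SHR-Bh against SHR-C, neither of them called by limma (adjusted p = 1). SHR-Bh and SHR-C shared no session, so that fit links them only through the SHR-Ca arrays.

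**Figure D2:**
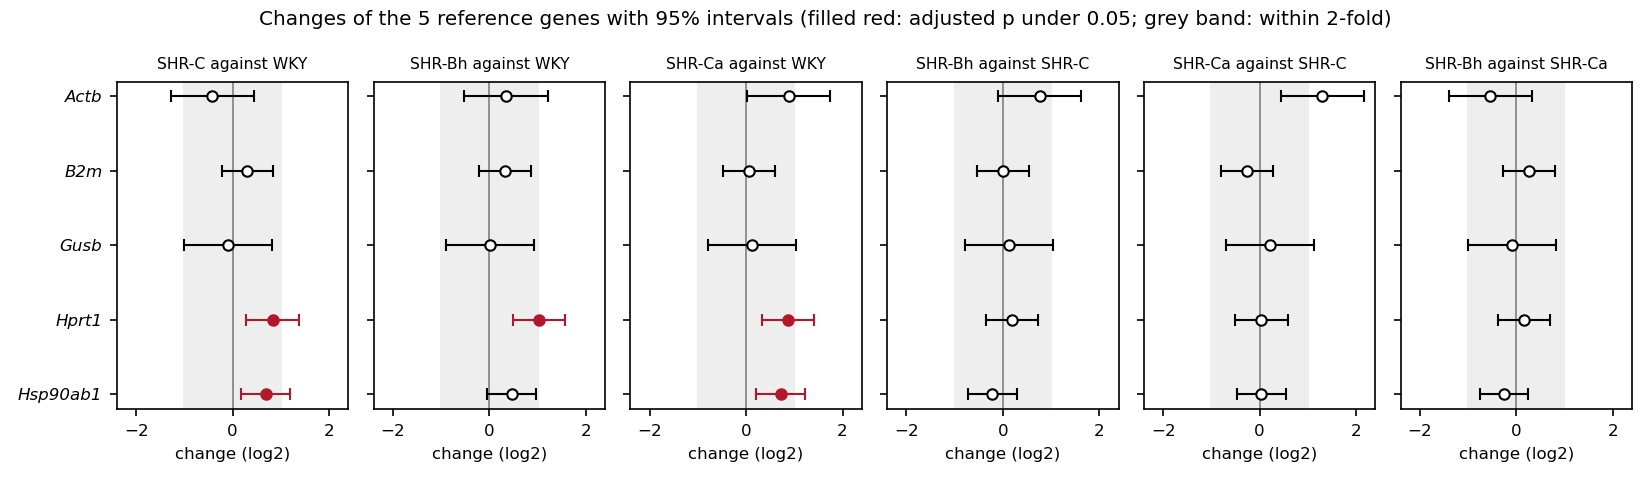
Change of each reference gene in the 6 comparisons on the log2 scale, first group minus second, with 95% intervals from the limma fit over 12 arrays; filled red points passed at an adjusted p under 0.05 and the grey band marks changes within 2-fold. Hprt1 is filled in all 3 comparisons with WKY and Hsp90ab1 in 2, while no point is filled among the SHR groups, where Actb in SHR-Ca against SHR-C lies at 1.30.

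A p-value that misses the threshold does not show a stable gene, so the width of each interval was read as well. With the 75th percentile and all arrays, the whole 95% interval of B2m lay within a 2-fold change either way in all 6 comparisons. It ran from -0.23 to 0.85 in SHR-C against WKY and from -0.79 to 0.28 in SHR-Ca against SHR-C. Without scaling, and with the spike-in probe, it went past the bound in all 6, as far as -1.98 to 0.17 without scaling in SHR-Ca against WKY. With the session block it did so in SHR-Bh against SHR-C, at both ends, and in SHR-Bh against SHR-Ca (-0.73 to 1.31). Leaving out WKY 3, SHR-C 2 or SHR-Bh 1 put it just past the bound in 2 comparisons each, to 1.06 at most. In SHR-C against WKY, B2m alone of the 5 met this bound, against 11.9% of tested probes. In SHR-Bh against WKY, B2m, Gusb and Hsp90ab1 met it, against 9.78% of probes, and in SHR-Ca against WKY again B2m alone, against 10.6%. Among the SHR groups B2m, Hprt1 and Hsp90ab1 met it in all 3 comparisons, against 38.4%, 40.3% and 42.4% of probes. Hprt1 and Hsp90ab1 went past the bound in all 3 without scaling and with the spike-in probe. With the session block Hprt1 did so in all 3 (-1.14 to 1.84 in SHR-Bh against SHR-C) and Hsp90ab1 in the 2 with SHR-Bh. In SHR-Bh against WKY, Gusb met the bound under 8 of 20 alternatives and Hsp90ab1 under 12, beside 16 for B2m. Among probes bright on every array the 6 shares were 18.2%, 14.9% and 16.1% for the comparisons with WKY in the same order, and among the SHR groups 51.8% for BSJY, 52.6% for captopril and 55.4% for BSJY against captopril. The interval of Actb met it in no comparison, and that of Gusb missed it in 5 of 6, narrowly in some: -1.01 to 0.81 for SHR-C against WKY. The 2-fold bound was chosen with earlier results of these data known.

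A single test of whether the 4 group means differ called Hprt1 alone (limma moderated F, adjusted p = 0.013), where 65.2% of all probes passed. Hsp90ab1 (limma adjusted p = 0.052) and Actb (limma adjusted p = 0.058) lay just beyond the threshold, B2m at 0.50 and Gusb at 0.97. Without WKY 1 none of the 5 passed, and without SHR-C 1 or SHR-Bh 1 there were 2. The share of all probes passing this test was not taken under any alternative, so these counts have nothing to be set against. Restricted to the 3 SHR groups none of the 5 passed (limma moderated F; 1 was under 0.05 before adjustment, Actb, with an adjusted p of 0.41), where 0.203% of all probes passed.

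The spread between arrays ordered the genes in another way, since it counts differences between and inside groups alike. Over the 12 arrays the SD was 0.26 for B2m, 0.35 for Hsp90ab1, 0.47 for Gusb, 0.47 for Hprt1 and 0.66 for Actb. The median of all tested probes was 0.86, and that of probes well above background on all arrays was 0.65. Only 2.54% of tested probes varied less than B2m, against 34.6% for Actb. Measured against the brighter probes alone these shares were 4.07% and 50.8%, so Actb was about as variable as the typical bright probe.

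Within the hypertensive strain the order changed. Over the 9 SHR arrays the SD was 0.21 for Hsp90ab1, 0.26 for Hprt1, 0.26 for B2m, 0.53 for Gusb and 0.68 for Actb, beside a median of 0.48 over tested probes. Hsp90ab1 and Hprt1 thus moved next to B2m once WKY was left out, with 5.13% and 12.4% of tested probes varying less. Actb and Gusb varied more than the median probe among SHR arrays, at 72.0% and 56.4% of tested probes with a smaller SD. Inside groups, pooled over the 4, the SD was 0.22 for Hsp90ab1, 0.25 for B2m, 0.26 for Hprt1, 0.51 for Actb and 0.54 for Gusb, where the median was 0.43.

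Gusb shows how the measures can part. Its group means spanned 0.22, a range smaller than that of all but 1.01% of tested probes, yet its SD inside groups exceeded that of 66.2% of them. The means of Hprt1 spanned 1.02 over the 4 groups, more than for 26% of tested probes, and 0.19 over the 3 SHR groups, more than for 10.5%. Its SD inside groups exceeded that of 15.4%. B2m was low on both counts, with means that spanned 0.32 and an SD inside groups of 0.25.

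**Figure D3:**
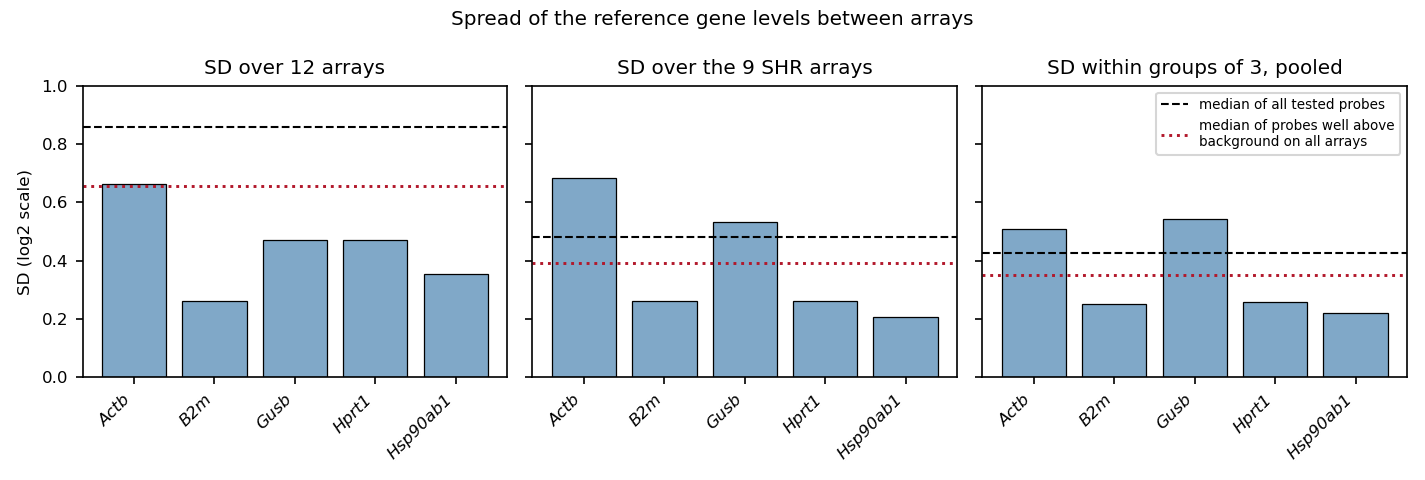
SD of the scaled log2 level of each reference gene over all 12 arrays, over the 9 SHR arrays, and inside groups of 3 pooled over the 4 groups (bars). The dashed line is the median over all tested probes and the dotted line that over probes well above background on all arrays; B2m is lowest over 12 arrays at 0.26, Hsp90ab1 lowest over SHR arrays at 0.21, and Actb or Gusb is highest in each panel.

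These ranks were taken under 5 ways of scaling the arrays. Actb had the largest SD over 12 arrays under all 5, from 0.66 to 0.78. B2m had the smallest under 4 of them, from 0.17 after quantile normalization to 0.31 after normexp, and ranked behind Hsp90ab1 and Hprt1 with no scaling, at 0.61. With no scaling Hsp90ab1 and Hprt1 varied least, at 0.46 and 0.50. Over the SHR arrays Hsp90ab1 varied least under 4 of the scalings and B2m under quantile normalization. Quantile normalization gives equal ranks equal values, which can hold a very bright probe such as B2m (14610 to 60810) nearly constant. Its SD under that scaling is therefore weak evidence of stability. With no scaling Gusb varied more than Actb there, at 0.72 against 0.61.

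The ratio of 2 of the genes on the same array does not change when 1 constant is taken from the whole array, so all 10 pairs were compared, each centred on its mean over the 12 arrays. The steadiest pair was B2m over Hprt1, with an SD of 0.36. Its centred log2 ratio was 0.27 to 0.76 on WKY arrays and -0.44 to 0.03 on SHR arrays, with no overlap. No other pair separated WKY from all SHR arrays. Quantile normalization and normexp do move such ratios. In a check added after seeing the data, B2m over Hprt1 still had the smallest SD under both, 0.29 and 0.34, and was still the only pair with WKY apart. Over the 9 SHR arrays this pair had an SD of 0.17, the smallest of the 10. The ratio shows that B2m and Hprt1 differed unequally between WKY and SHR arrays, and not which of them changed. Strain and scan session cannot be told apart in it.

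Next were Hprt1 over Hsp90ab1, with an SD of 0.37, and B2m over Hsp90ab1, with 0.41. Hprt1 over Hsp90ab1 showed no step between WKY and SHR, with -0.38 to -0.03 on WKY arrays inside the SHR range of -0.51 to 0.61. The 3 pairs with the largest SD all held Actb: with B2m 0.78, with Hprt1 0.80 and with Gusb 0.83. Averaged over the 4 pairs of each gene, the SD was 0.50 for B2m, 0.53 for Hprt1, 0.53 for Hsp90ab1, 0.63 for Gusb and 0.77 for Actb. On every array of SHR-Ca, Actb over B2m was higher than on any SHR-C array, at 0.65 to 0.98 against -1.47 to -0.04, a difference of means of 1.56.

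**Figure D4:**
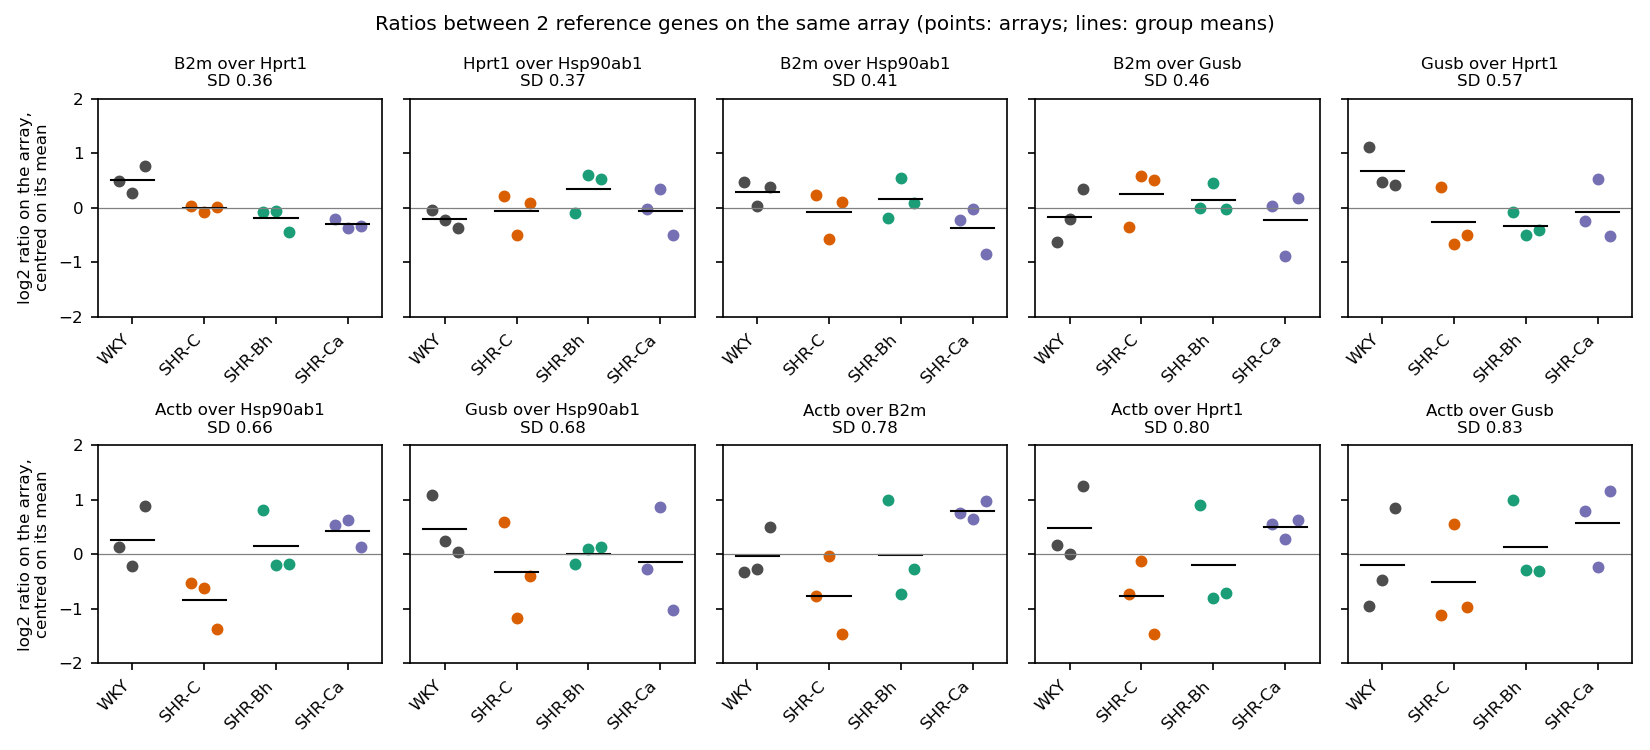
Log2 ratio between 2 reference genes on the same array, centred on its mean over the 12 arrays, for all 10 pairs in order of their SD; points are arrays and lines are means of groups of 3. B2m over Hprt1, the steadiest at 0.36, is the only pair in which WKY lies apart from every SHR array, and the 4 pairs with Actb range from 0.66 to 0.83.

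What the choice of reference does to the rest of the array was then measured by using each gene as the only scale. In captopril-treated against untreated SHR, the 75th percentile called 83 of 29613 probes, all lower. Scaling to B2m called 2, to Hprt1 20, to Hsp90ab1 48 and to Gusb 60. Scaling to Actb called 11553 probes (39.0%), of which 11526 were lower in SHR-Ca and 27 higher, since its own difference of 1.30 is taken from every probe. The mean of the 5 genes called 150.

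The count under Actb moved strongly with single arrays, a check added after seeing the data. Leaving out SHR-C 1 gave 3333 calls, SHR-C 3 gave 1737, SHR-Ca 2 gave 2275 and SHR-Ca 3 gave 5776. Leaving out SHR-C 2 gave 13462 and SHR-Ca 1 gave 8944, so the lowest of the 6 counts was 1737, beside the 83 called with the 75th percentile. In SHR-Bh against SHR-C, Actb as the scale called 721 probes, all lower, against 28 with the 75th percentile, 41 with the mean of the 5 and 0 with each of the other 4 genes.

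In SHR-C against WKY the choice shifted the balance between higher and lower calls. Of 18278 calls with the 75th percentile 35.5% were higher in SHR-C. That share was 44.2% of 12681 calls with Actb, 31.8% of 12260 with Gusb and 25.5% of 17452 with B2m. It fell to 16.8% of 18316 with Hsp90ab1 and 12.8% of 19109 with Hprt1, the 2 genes that rose themselves. The mean of the 5 gave 27.3% of 17863.

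**Figure D5:**
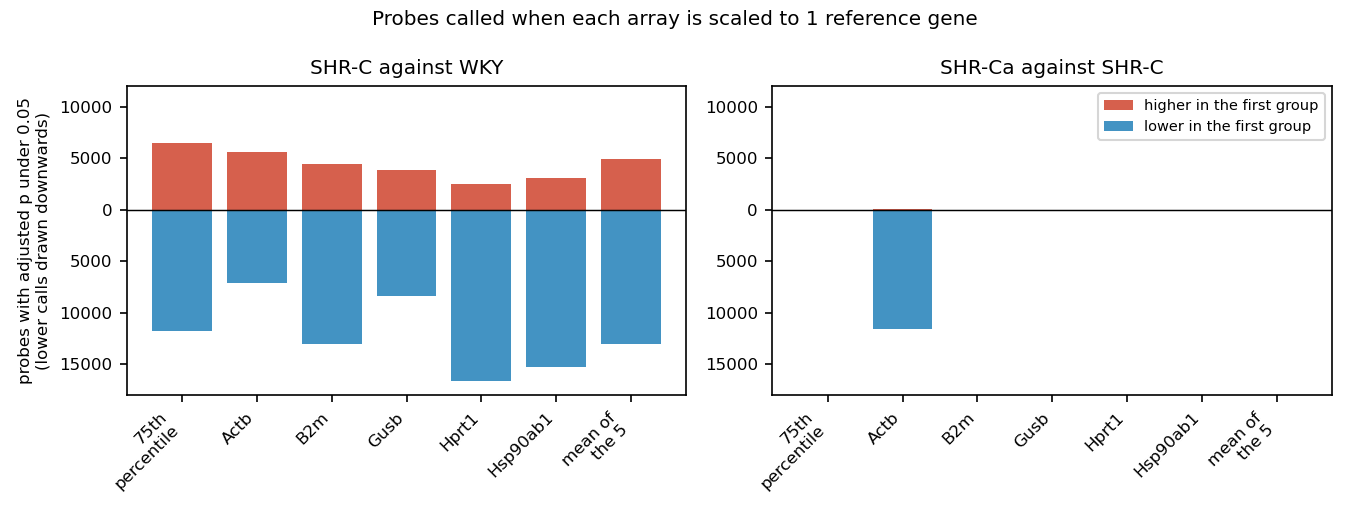
Number of probes with an adjusted p under 0.05 when each array is scaled to its 75th percentile, to 1 reference gene or to the mean of the 5; higher calls are drawn upwards and lower calls downwards. In SHR-C against WKY every scale gives at least 12260 calls with a different balance, and in SHR-Ca against SHR-C only Actb gives a bar of visible height, 11526 lower and 27 higher.

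The 5 genes can be placed among the 10 named custom reference probes. By SD over the 12 arrays B2m and Hsp90ab1 came next after Rplp1, a protein of the large ribosomal subunit, at 0.20. Gusb had rank 6 and Hprt1 rank 7. Actb had rank 9, ahead only of Sdha, a subunit of mitochondrial succinate dehydrogenase, at 0.76. Over the SHR arrays Rpl13a, another ribosomal protein, varied least at 0.18, followed by Rplp1 at 0.19 and Hsp90ab1 at 0.21. Of the 5 named probes besides the genes described here, 1 rose in SHR-C against WKY, Rpl13a (0.72, limma adjusted p = 0.013), and the other 4 did not pass, down to -0.49 for Ldha. In SHR-Ca against WKY 1 rose, Rpl13a again, and 2 fell, the glycolytic enzymes Ldha (-1.04, limma adjusted p = 0.0037) and Pgk1 (-0.99, limma adjusted p = 0.0080), which are named after their values were seen. None of the 5 passed among the SHR groups in limma. Of 18 other reference genes in common use, 5 were named on the array, and they are these same 5.

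The likeness of each gene's profile to those of 27 other named genes was taken as the root mean square difference of the centred log2 levels over the 12 arrays. Hprt1 lay closest to Ndfip2 at 0.17 and Rpl13a at 0.17, where the median over the 27 genes was 0.71. B2m lay closest to Magoh at 0.20 and Pop7 at 0.25, with a median of 0.66. Gusb lay closest to Pop7 at 0.30 and Magoh at 0.37, and Hsp90ab1 to Cse1l at 0.31 and Rpl13a at 0.32. Actb had no near neighbour by this measure, with Med16 closest at 0.55 and Rpl13a next at 0.69. A small value also arises between any 2 genes that vary little, so these are descriptions only.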

How the data were processed

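Total RNA of 12 rat aorta samples was labelled with Cy3 and put on 1 array each, and groups follow the sample titles. The authors deposited 1 scanner table per array, whose processed intensity was used. It was made in Agilent Feature Extraction 11.0.1.1, per the file headers, by background subtraction and detrending inside each array, without any recorded step across arrays. Spots marked as outliers were dropped, the log2 intensities of a probe's remaining spots were averaged, and the array's 75th percentile was taken off. Testing was limited to probes well above background on every array of some group and lacking a value on no more than 1 array, which kept 29613 of 38321 (77.3%), all 5 reference genes among them. limma 3.58.1 under R 4.3.3 fitted 1 mean per group to all 12 arrays. Two-sided p-values were adjusted by Benjamini-Hochberg over all tested probes, threshold 0.05.

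The array design names the build rn4, and the table of rat genes is of GRCr8, so no probe coordinates are given. That table named 38 genes from 39 of the 44 probes that carry an accession. The members, gene lists and bounds were chosen with earlier results of these data known. All 5 genes are named whatever their p, and of the other custom reference genes the extremes. The fit was tested on simulated data with 200 of 29613 probes changed, unlike the comparisons with WKY, where most probes passed. Over the 6 comparisons it recovered 2 to 9 of 100 2-fold changes and 52 to 67 of 100 4-fold changes. Most 2-fold changes were therefore missed in that setting. Against WKY far more probes passed, so the adjusted threshold was less strict there. The simulation does not give the share missed in those comparisons.

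Alternatives were quantile normalization, no scaling, the median of probes bright on all arrays, the spike-in probe bright on all arrays, normexp with an offset of 50, other treatment of spots, other filters, intensity trend with robust variance, array weights, the compared groups alone, the replicate number and the scan session as blocks, and each array left out. Normexp was run on median spot and background signals in place of the planned mean signals.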

Additional observations from a re-analysis of the deposited data

How the results depend on the processing

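Over the 30 changes of the 5 genes under 20 alternatives each, 523 of 600 values kept their direction and side of the threshold, 16 kept the direction and lost the call, 2 gained one and 59 changed sign, 5 of them of called values. Other filters, the trend with robust variance, the compared groups alone and the replicate block leave the change itself as it was. No value could change sign under them. Only 5 of the 30 changes were called at the start, so few calls could be lost. Only calls of Hprt1 and Hsp90ab1 against WKY were lost.

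Reference genes called in SHR-C against WKY were 2, and 1 under quantile normalization and median scaling, and 0 without scaling, with the spike-in probe and with normexp. For SHR-Ca against WKY they were 2, and 1 under quantile normalization and normexp, 0 without scaling and with the spike-in probe, and 3 with array weights. For SHR-Bh against WKY 1 became 0 without scaling and with the spike-in probe. Over the 4 groups 1 became 0 without scaling, with the spike-in probe and with normexp, 2 among probes bright on all arrays, and 3 with an intensity trend and robust variance and with array weights. With 1 array left out the counts were 1 to 2 for SHR-C, 1 to 3 for SHR-Ca, 1 to 1 for SHR-Bh and 0 to 2 over the 4 groups. Over all probes the calls in SHR-C against WKY were 18278, and 17438 under quantile normalization and 18398 under median scaling. They were 16360 without scaling, 7668 with the spike-in probe and 10830 with normexp. In SHR-Ca against WKY they were 19655, then 18532 under quantile normalization, 12286 with normexp, 17825 without scaling and 5611 with the spike-in probe. For SHR-Bh 19896 became 17432 without scaling and 5758 with the spike-in probe.

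Under quantile normalization the values that changed sign, none of them called before, were SHR-Bh against WKY Actb -0.060 and Gusb -0.25, SHR-Ca against WKY Gusb -0.13, SHR-Bh against SHR-C B2m -0.044 and SHR-Bh against SHR-Ca Hprt1 -0.075. Without scaling they were B2m -0.51 and the called Hsp90ab1 -0.14 in SHR-C against WKY. In SHR-Bh against WKY they were Actb -0.65, B2m -0.68, Gusb -0.98 and Hsp90ab1 -0.54, and in SHR-Ca against WKY Actb -0.072, B2m -0.90, Gusb -0.84, the called Hprt1 -0.088 and Hsp90ab1 -0.24. They were B2m -0.17 and Gusb -0.060 in SHR-Bh against SHR-C, and Hprt1 -0.099 and Hsp90ab1 -0.10 in SHR-Ca against SHR-C. With the spike-in probe, whose SE was 1.22, they were B2m -0.90 and the called Hprt1 -0.38 and Hsp90ab1 -0.53 in SHR-C against WKY, and Actb -0.30, B2m -0.33, Gusb -0.63 and Hsp90ab1 -0.18 in SHR-Bh against WKY. They were B2m -0.50 and Gusb -0.44 in SHR-Ca against WKY, Hsp90ab1 0.34 in SHR-Bh against SHR-C and B2m 0.40 in SHR-Ca against SHR-C. Gusb in SHR-Bh against WKY was -0.11 under median scaling and -0.048 with normexp, and B2m in SHR-Ca against WKY was -0.061, -0.040 and, with array weights, -0.012. Array weights also gave Gusb -0.12 in SHR-Ca against WKY and 0.28 in SHR-Bh against SHR-Ca. With the scan session as a block, Hsp90ab1 was -0.22 in SHR-Ca against SHR-C and Gusb 0.48 in SHR-Bh against SHR-Ca.

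With 1 array left out, Gusb changed sign in all 6 comparisons: -0.46 to 0.23 (SHR-C against WKY), -0.11 to 0.17 (SHR-Bh against WKY), -0.32 to 0.40 (SHR-Ca against WKY), -0.21 to 0.48 (SHR-Bh against SHR-C), -0.22 to 0.58 (SHR-Ca against SHR-C) and -0.38 to 0.34 (SHR-Bh against SHR-Ca). So did B2m in SHR-Ca against WKY (-0.050 to 0.18) and SHR-Bh against SHR-C (-0.15 to 0.17), and in SHR-Ca against SHR-C Hprt1 (-0.10 to 0.12) and Hsp90ab1 (-0.12 to 0.13). The cause was not tested.

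Samples were not treated as paired by the replicate numbers shared across groups. Correlations of same-numbered deviations ran from -0.48 to 0.57. They cannot show or exclude a pairing, since differently numbered arrays were not compared. With the replicate block, Hprt1 in SHR-C against WKY was 0.83 (limma adjusted p = 0.018), and the reference genes called stayed at 2, 1 and 2 against WKY and 0 in the other comparisons.

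Calls over all probes moved by over 1.5 times in places. In SHR-C against WKY 18278 became 7668 with the spike-in probe, 10830 with normexp and 9554 among probes bright on all arrays. For SHR-Bh 19896 became 5758, 11988 and 10642, and for SHR-Ca 19655 became 5611, 12286 and 10453. In SHR-Ca against SHR-C 83, all lower, became 15, all higher, with the spike-in probe, 11 with normexp, 31 among probes bright on all arrays, 128 with array weights, 0 with the compared groups alone or the session block, and 38 to 149 with 1 array left out. In SHR-Bh against SHR-C 28 became 18 under quantile normalization, 7 with the spike-in probe, 5 with normexp, 5 without a filter, 190 with array weights, 0 with the compared groups alone or the session block, and 0 to 93 with 1 array left out. In SHR-Bh against SHR-Ca 0 became 4 with the spike-in probe and 102 with the compared groups alone. With 1 array left out it was 0 to 20, with 20 without SHR-Bh 1 and 1 each without SHR-Bh 3 and SHR-Ca 1.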

Other observations

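The arrays carry 10 E1A spike-in probes, for control sequences meant to be added to the RNA during labelling. Whether they were added to these samples was not checked. On the WKY arrays 2 of them, E1A_r60_3 and E1A_r60_a20, were well above background on 3 of 3 arrays, at intensities of 21.5 to 45.3 and 18.6 to 34.7. On the SHR arrays both were well above background on 0 of 9, at 1.42 to 3.70 and 2.94 to 4.38. E1A_r60_a107 was well above background on all 12 arrays, with 37.2 to 238.3 on WKY arrays and, on SHR arrays, 29.0 to 322.7. It was the only 1 of the 10 well above background on every array, so the spike-in alternative rests on it alone. E1A_r60_a97, E1A_r60_a104, E1A_r60_a135 and E1A_r60_n9 were well above background on 0 of 12 arrays, at 1.12 to 4.11.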
